A study of Mus musculus with 24 samples.

Results

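Transcripts of 7 genes of the Nodal pathway were followed in mouse embryonic stem cells (ESCs) that lacked one or more of the Tet enzymes, which oxidize methylated cytosine in DNA. The genes were fixed by name, *Nodal*, *Tdgf1*, *Acvr2b*, *Foxh1*, *Lefty1*, *Lefty2* and *Smad7*, and are 7 of the 22926 gene symbols in the count tables. All 7 were present as a single line each and passed the filter on low counts in every fit. RNA-seq of polyadenylated RNA covered 24 libraries, 12 of undifferentiated ESCs grown with leukemia inhibitory factor (LIF), a cytokine that keeps mouse ESCs pluripotent, and 12 of cells kept 6 days without it (D0 and D6). Each day held 3 clones of wild-type (WT) cells, 3 of Tet1-/-, 2 of Tet2-/-, 2 of the double knockout of *Tet1* and *Tet2* (DKO) and 2 of the triple knockout that also lacks functional *Tet3* (TKO). All of them, WT included, derive from 1 clone of a 129/SVj-derived ESC line with eGFP inserted at the *Pou5f1* (Oct4) locus, and the knockouts were made in it by CRISPR editing. Each library is 1 clone, so the spread between libraries of a genotype is a spread between clones. The clones were the same at both days except in Tet1-/-, where clone 2.3 was sequenced at D0 alone and clone 2.2 at D6 alone, and 11 clones could be followed from D0 to D6.

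Nodal is a secreted ligand of the TGF-beta family that signals through activin receptors together with the co-receptor Cripto, the product of *Tdgf1*. The activated SMAD proteins enter the nucleus, where FOXH1 is one of their DNA-binding partners, and the pathway switches on its own inhibitors, among them the Lefty proteins, which block Nodal and Cripto outside the cell. In the early embryo Nodal supports the pluripotent epiblast and later directs the primitive streak, mesoderm and endoderm.

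The labelled cell type was checked against marker genes. Summed over 8 pluripotency markers, expression at D0 lay between 5604 and 6333 CPM (the counts of a gene scaled to library size, with TMM factors) in all 12 libraries. At D6 it was 835 to 2181 CPM in WT and 2470 to 2678 CPM in Tet2-/-, while 6 markers of the primitive streak and mesoderm reached 147 to 550 CPM in WT and 7.43 to 15.0 CPM in Tet2-/-. Library totals ran from 18400463 to 37290208 counts, and members had at least 192 counts in every library. Of the edited genes, *Tet2* stood at 20.9 and 23.2 CPM in Tet2-/- at D0 against 87.9 to 94.0 CPM in WT. At D6 it was low everywhere and did not separate them, with 15.9 and 16.6 CPM in Tet2-/- and 12.3 to 16.0 CPM in WT (log2 0.23 ± 0.25, adjusted p = 0.506). At D0 *Tet1* in Tet1-/- (93.4 to 358 CPM) overlapped WT (220.4 to 431 CPM). *Tet1* was at 41.7 and 568 CPM in the 2 TKO clones at D0. By edgeR 0 of the 3 edited genes were called lower against WT at D0 in Tet1-/- and DKO, and only *Tet2* was in Tet2-/- and TKO. The calls therefore do not check the Tet1-/- and DKO labels or the *Tet3* edit. A small edit need not change the number of reads on a gene, so these levels check the labels only in part. Some *Tet1* deletions that the authors list for Tet1-/-, DKO and TKO clones keep the reading frame by their length. The paper reports loss of the protein by Western blot. WT clone O4.2 stood apart from the other WT clones at D0 in *Nodal*, *Lefty1* and *Lefty2*, and values printed for these genes that change call or sign without its D0 library are given both ways. Values of a group are listed in replicate order, which for WT is O4.1, O4.2 and O4.13 at D0 and O4.2, O4.1 and O4.13 at D6.

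Sequence before the start of the gene was at hand for 3 of the 7 genes in the RefSeq promoter table (GRCm38.p6), *Nodal*, *Tdgf1* and *Acvr2b*. The 250 bases before the start are shown for the ligand and its co-receptor, because over 6 days without LIF *Tdgf1* was lower in every clone that could be followed and *Nodal* higher in most. Capitals mark matches to the letters AATNNACA or CAGAC, a SMAD-binding box. AATNNACA is a loose form of the FOXH1 site with the middle bases left free, so a match need not be a FOXH1 site. Both strands were searched.
Nodal (chr10:61417722-61417971, plus strand): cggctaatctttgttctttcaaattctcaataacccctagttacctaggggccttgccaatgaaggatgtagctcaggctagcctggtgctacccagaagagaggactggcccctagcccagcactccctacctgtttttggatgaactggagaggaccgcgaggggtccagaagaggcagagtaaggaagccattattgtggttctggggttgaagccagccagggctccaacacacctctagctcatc
Tdgf1 (chr9:110946159-110946408, minus strand): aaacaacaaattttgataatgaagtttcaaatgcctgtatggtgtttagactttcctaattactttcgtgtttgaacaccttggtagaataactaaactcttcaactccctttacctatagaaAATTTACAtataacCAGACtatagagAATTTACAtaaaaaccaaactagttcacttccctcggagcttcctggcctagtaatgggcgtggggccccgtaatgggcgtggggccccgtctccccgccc
The *Tdgf1* window holds AATNNACA at 2 places, 127 to 120 and 101 to 94 bases before the start, with a CAGAC between them at 113 to 109. The *Nodal* window holds neither set of letters. *Acvr2b* has 1 CAGAC, on the minus strand, and no AATNNACA. For comparison, 11.1% of 27025 RefSeq promoter windows of that length hold AATNNACA and 42.1% hold CAGAC, so such a match is common and describes letters only. These shares count windows with at least 1 match, and windows with 2 AATNNACA and a CAGAC between them were not counted.

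On a scale that allows for length (CPM per kilobase of the longest coding transcript of GENCODE vM1), *Tdgf1* was the highest of the 7 genes in WT at D0, with a level of 396 ± 23.6 (SD, n = 3). The level of *Lefty2* was 68.9 ± 33.2, that of *Smad7* 32.6 ± 2.99 and that of *Nodal* 31.9 ± 12.9 CPM per kilobase. *Lefty1* (27.7 ± 17.1), *Foxh1* (20.3 ± 6.77) and *Acvr2b* (10.6 ± 2.29) were lower. The SDs of *Lefty1*, *Lefty2* and *Nodal*, which are spreads between clones, overlap one another. Within each WT clone at D0, however, *Lefty2* was 2.14 to 2.69 times *Nodal* in CPM and *Lefty1* 0.365 to 0.743 times. These ratios do not allow for transcript length (2473 bases for *Lefty2*, 2095 for *Nodal* and 1620 for *Lefty1*).

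Over 6 days without LIF, *Smad7* and *Tdgf1* were lower in all 11 followed clones and *Foxh1* was higher in 11, by as little as 0.0025 on the log2 scale in Tet2-/- replicate 1. *Nodal* was higher at D6 in 10 of the 11 clones and *Acvr2b* in 9. *Lefty1* and *Lefty2* split by genotype and clone, each being higher in 7 and lower in 4. A gene was called changed at an adjusted p-value of edgeR's quasi-likelihood test under 0.05 together with more than a 2-fold change. Errors of log2 values are the standard errors of that fit. By that rule 5 of 7 members changed between D0 and D6 in WT, where 34.0% of all tested genes were called. In Tet1-/- 3 of 7 were called (31.1% of all genes), in DKO 4 of 7 (29.2%) and in TKO 2 of 7 (25.4%). In Tet2-/- 0 of 7 were called by edgeR against 19.1% of all genes, and 0 of 7 by DESeq2. There 1 of 7 members and 7552 of 15639 genes had an unadjusted p under 0.05. The median log2 change of the 7 genes was -0.60 in WT and 0.19 in Tet2-/-, with medians over all genes of 0.01 and -0.00057. In bulk RNA a change in the share of cells that express a gene and a change in RNA per cell cannot be told apart.

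**Figure D1:**
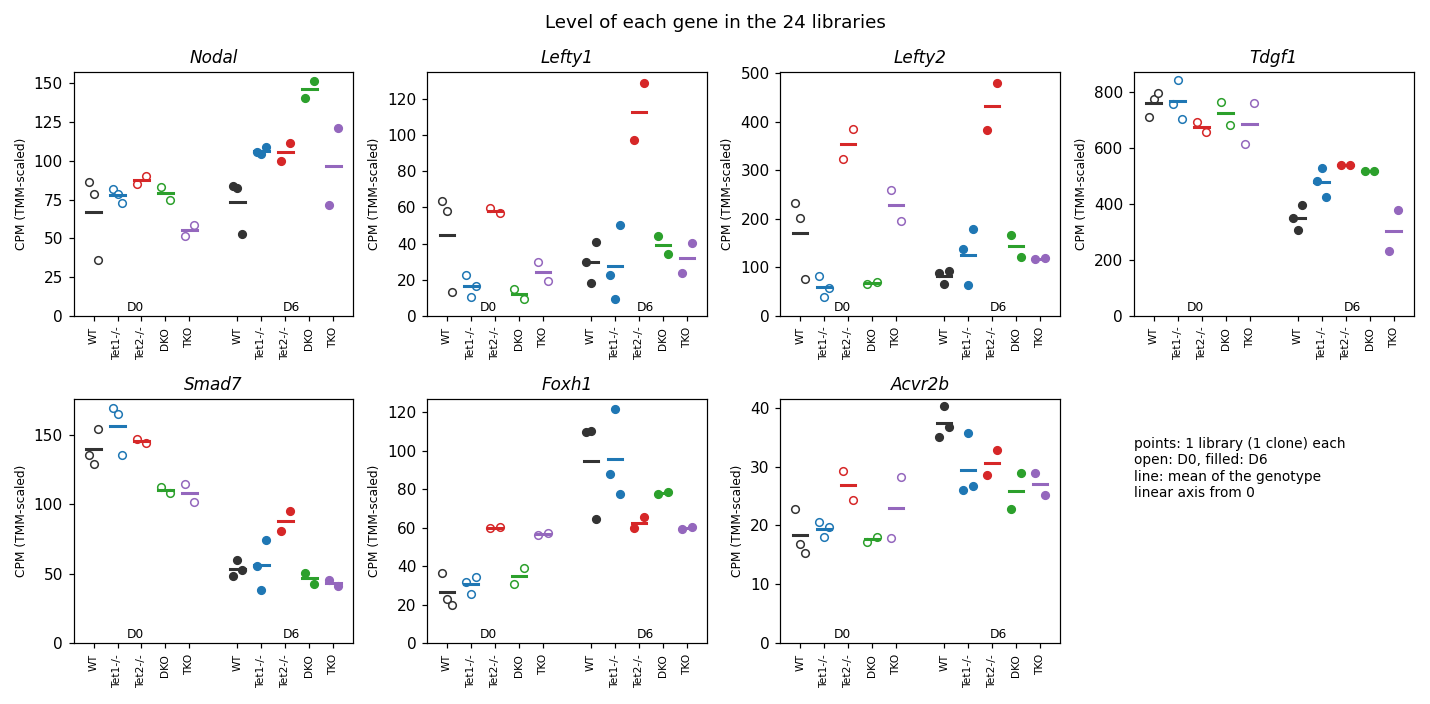
Level of each gene in CPM (linear axis from 0) in every library, by genotype, with D0 as open and D6 as filled points and lines at the mean of a genotype. Both Tet2-/- clones have the highest *Lefty1* (97.0 and 129 CPM) and *Lefty2* (382 and 480.3 CPM) of all libraries at D6.

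**Figure D2:**
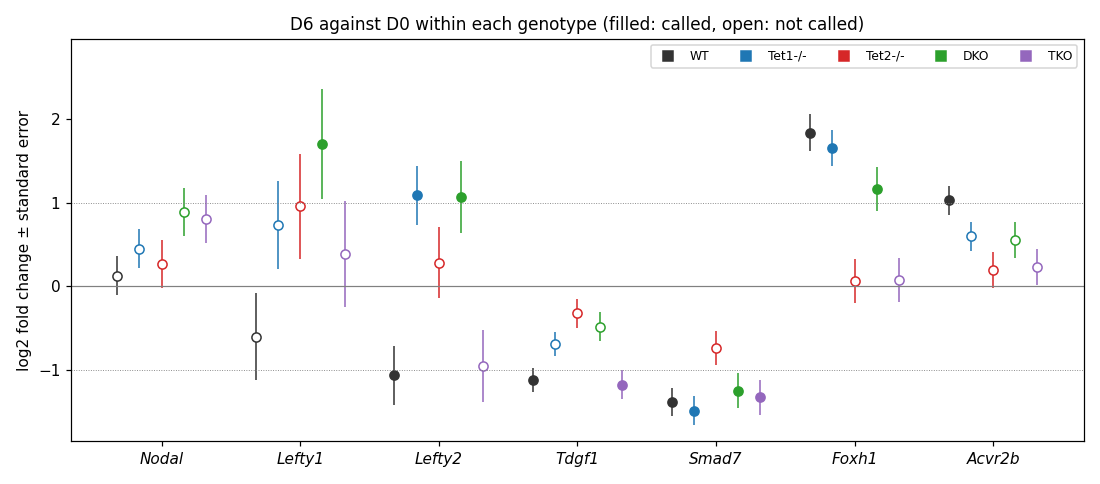
Log2 fold change of D6 against D0 with its standard error for each gene and genotype, from the edgeR fit of all 24 libraries. Filled points are called, dotted lines mark a 2-fold change, and none of the 7 Tet2-/- points is filled.

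*Nodal*, the ligand (mm9 chr10:60880720-60888086, plus strand), was near the same level in most D0 libraries. WT clones had 86.2, 36.0 and 78.3 CPM, the lowest being O4.2. Tet1-/- had 81.6, 78.6 and 72.9 CPM, Tet2-/- 85.1 and 90.3 CPM, DKO 83.1 and 75.0 CPM and TKO 58.5 and 51.8 CPM. WT overlapped every knockout at D0 except Tet2-/- replicate 2, which was just above the highest WT clone, and its low end rested on O4.2, since both TKO clones lay under the other 2 WT clones. With all clones edgeR gave differences from WT between -0.28 ± 0.26 (TKO) and 0.37 ± 0.25 (Tet2-/-) on the log2 scale, none of them called. Without O4.2 the TKO value was -0.58 (adjusted p = 0.0191), less than 2-fold, and that of Tet2-/- 0.07 (0.741). The Tet1-/- and DKO values turned from 0.196 to -0.103 and from 0.23 to -0.07 (adjusted p 0.748 and 0.809).

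At D6 the WT clones held 53.1, 83.7 and 82.6 CPM of *Nodal*, and their range overlapped that at D0. Tet1-/- had 105.4, 104.5 and 109 CPM and Tet2-/- 99.9 and 112 CPM. DKO had the highest *Nodal*, 151 and 140.4 CPM, and the TKO clones differed from each other (121 and 71.4 CPM). All clones of Tet1-/-, Tet2-/- and DKO were above every WT clone at D6, while TKO overlapped WT. The log2 difference from WT was 1.00 ± 0.22 in DKO with an adjusted p of 0.171, against 0.00655 in DESeq2, 0.54 ± 0.20 in Tet1-/- (adjusted p = 0.353) and 0.52 ± 0.22 in Tet2-/- (adjusted p = 0.0974). Without the D6 library of O4.2, the lowest of WT, these values were 0.82 in DKO (adjusted p = 0.0927), 0.36 in Tet1-/- (0.352) and 0.34 in Tet2-/- (0.213). Between days *Nodal* rose by 0.88 ± 0.29 in DKO (adjusted p = 0.0141) and 0.81 ± 0.29 in TKO (0.0264), both less than 2-fold. The DKO value passed 2-fold with library totals in place of TMM (1.09, adjusted p = 0.00458), and its adjusted p was 0.0772 without D0 replicate 2 and 0.066 without D6 replicate 1. The TKO value rested on single libraries, being 1.16 without D6 replicate 2 (adjusted p = 0.00721), 0.37 without D6 replicate 1 (0.366), 0.90 without D0 replicate 1 (0.0534) and 0.72 without D0 replicate 2 (0.125). In WT the change was 0.13 ± 0.23 (adjusted p = 0.643) and -0.17 without the D0 library of O4.2 (0.429), and single WT clones moved by -0.04 (O4.1), 0.08 (O4.13) and 0.56 (O4.2).

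*Tdgf1*, the co-receptor (mm9 chr9:110842114-110848662, minus strand), varied least of the 7 at D0. WT clones had 711, 798 and 776 CPM. The highest of the 12 libraries at D0 was 1.37 times the lowest, and Tet2-/- (693 and 657 CPM) lay just under every WT clone, a difference of -0.20 ± 0.11 on the log2 scale that was not called (adjusted p = 0.267). By D6 WT had fallen to 396, 351 and 308 CPM. Tet2-/- held 541 and 539.8 CPM and DKO 518.6 and 518.9 CPM, while Tet1-/- had 484, 528 and 426 CPM. The TKO clones, with 380.2 and 231 CPM, overlapped WT. Within WT *Tdgf1* fell by 1.11 ± 0.14 on the log2 scale (2.16-fold lower, adjusted p = 1.98e-06) and in TKO by 1.17 ± 0.18 (2.25-fold lower, adjusted p = 2.96e-05). It fell by less than 2-fold in Tet1-/- (-0.68 ± 0.14, adjusted p = 0.000394) and DKO (-0.48 ± 0.17, adjusted p = 0.024), and the Tet2-/- value was -0.32 ± 0.17 (adjusted p = 0.149). At D6 *Tdgf1* in Tet2-/- was 0.60 ± 0.19 above WT (adjusted p = 0.0358) and 0.79 ± 0.21 above TKO (0.0319), neither reaching 2-fold, although the latter did without TKO replicate 1 (1.21, 0.00345). The test of the difference between days gave 0.79 ± 0.22 for Tet2-/- relative to WT (adjusted p = 0.0242), also under the 2-fold limit. Both called falls pass 2-fold by little. With library totals in place of TMM they were -0.97 in WT and -0.98 in TKO, and without TKO D6 replicate 2 the TKO value was -0.83 (adjusted p = 0.000816).

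Of the 38-base windows of the *Tdgf1* transcript, 29.3% occur more than once in the mm9 genome, so its reads may be shared with processed copies of the gene. How the counting treated such reads is not given in the sources used here.

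*Acvr2b*, a type II activin receptor (mm9 chr9:119311562-119342619, plus strand), had the lowest level per length of the 7 in WT at D0. WT clones at D0 held 22.8, 15.3 and 16.8 CPM and at D6 36.7, 35.0 and 40.2 CPM. In WT it rose 2.04-fold (log2 1.03 ± 0.18, adjusted p = 5.29e-05), a value that slipped under 2-fold without WT D0 clone O4.2 (0.91), WT D0 clone O4.13 (0.97) or WT D6 clone O4.13 (0.99). The rise was 0.60 ± 0.18 in Tet1-/- (adjusted p = 0.00615) and 0.55 ± 0.22 in DKO (adjusted p = 0.0359). With clone as a block in edgeR it was 0.39 in Tet1-/- (adjusted p = 0.147) and 0.54 in DKO (0.0503). Tet2-/- began higher, with 29.3 and 24.4 CPM at D0, above every WT clone, and reached 28.5 and 32.8 CPM at D6, below every WT clone. The DKO (28.9 and 22.8 CPM) and TKO clones (25.2 and 28.9 CPM) also lay below every WT clone at D6. Log2 differences from WT at D6 were -0.53 in DKO, -0.46 in TKO, -0.35 in Tet1-/- and -0.30 in Tet2-/-, none called (edgeR adjusted p 0.148 to 0.381). The difference between days in the effect of the *Tet2* knockout was -0.83 ± 0.28 on the log2 scale (adjusted p = 0.0462), under the 2-fold limit, and -0.72 without WT D0 clone O4.2 (0.101). It passed that limit only without WT D0 clone O4.1 (-1.02, adjusted p = 0.0207). The same contrast for TKO was -0.80 ± 0.28 (adjusted p = 0.0908) and was called without TKO D0 replicate 2 (-1.09, 0.0161).

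*Foxh1*, the DNA-binding partner of the SMADs (mm9 chr15:76498714-76500378, minus strand), was already high at D0 in the 2 genotypes in which no change between days was called. WT clones had 36.6, 19.9 and 23.1 CPM at D0, whereas Tet2-/- had 59.6 and 60.1 CPM and TKO 57.4 and 56.2 CPM. Tet1-/- (31.9, 25.3 and 34.2 CPM) overlapped WT, as did DKO (30.7 and 39.1 CPM). Tet2-/- and TKO clones lay above every clone of WT, Tet1-/- and DKO. Of the 7 members, *Foxh1* alone was called at D0 against WT in Tet2-/-, 2.22-fold higher (log2 1.15 ± 0.21, adjusted p = 0.0119), in a comparison that called 3.19% of all genes. The same held for TKO, 2.14-fold higher (1.09 ± 0.21, adjusted p = 0.0122), where 3.15% of all genes were called. Both comparisons share the WT clones. Tet2-/- was also above Tet1-/- at D0 (0.98 ± 0.21, adjusted p = 0.0104) and DKO (0.77 ± 0.24, 0.0403), under 2-fold, and the former passed 2-fold without Tet1-/- clone 2.1 or 2.4 (1.01 and 1.07). The Tet2-/- call was lost without Tet2-/- replicate 1 or 2 (adjusted p 0.0917 and 0.129), and without WT clone O4.13 (0.0557). Without WT clone O4.2 it fell just under 2-fold (log2 0.98, adjusted p = 0.0457). The TKO call was lost without WT clone O4.2 (log2 0.93, under 2-fold), without O4.13 (adjusted p = 0.0579) and when only WT and TKO entered the fit (0.147).

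At D6 WT had 64.7, 109.5 and 109.9 CPM of *Foxh1*, again with O4.2 the lowest. Tet1-/- had 87.9, 122 and 77.5 CPM and DKO 78.6 and 77.5 CPM. Tet2-/- stood at 59.8 and 65.5 CPM and TKO at 60.4 and 59.3 CPM, close to their own D0 levels. *Foxh1* rose 3.56-fold between days in WT (adjusted p = 9.7e-07), 3.14-fold in Tet1-/- (adjusted p = 3.67e-06) and 2.24-fold in DKO (adjusted p = 0.00121). The corresponding log2 values were 0.06 ± 0.26 in Tet2-/- (adjusted p = 0.864) and 0.08 ± 0.26 in TKO (adjusted p = 0.83). The difference in the change from WT was itself called, -1.77 ± 0.34 for Tet2-/- (adjusted p = 0.00521) and -1.76 ± 0.34 for TKO (adjusted p = 0.00902). These contrasts called 8.68% and 3.58% of all genes, and *Foxh1* was the only one of the 7 members called in each. The Tet2-/- call held in each of the 31 alternatives, and the TKO call in 30, being lost when only WT and TKO entered the fit (adjusted p = 0.097). For Tet1-/- and DKO, edgeR called 0 of 7 members in that contrast and 0 genes in all (0%). An unadjusted p under 0.05 was found for 2 and 3 of 7 members, and for 1200 and 1255 of 15639 genes. DESeq2, whose calls over all genes were not counted, called 1 member each.

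A limit applies to every *Foxh1* value. The gene *Kifc2*, a kinesin on the opposite strand, ends 88 bases from the end of *Foxh1* in GENCODE vM1. Of all genes, *Kifc2* had the pattern most like *Foxh1*, with Pearson's r of 0.966 over the 24 libraries after each day's mean was subtracted and 0.99 over the 10 means of genotype and day. Its level was 0.262 to 0.399 times that of *Foxh1* in CPM in all libraries. Whether the counting used strand is not given in the sources used here, so reads that run past the end of either gene cannot be told apart.

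*Lefty1* and *Lefty2* encode the secreted inhibitors of Nodal. They lie 35918 bases apart on the plus strand (mm9 chr1:182865153-182868531 and chr1:182823239-182829234). Of the 38-base windows of the *Lefty1* transcript, 22.3% are also in *Lefty2*, and 14.8% of the *Lefty2* windows are in another coding transcript, so part of the reads of one may count for the other and their separate values are uncertain to that extent. Over the 12 libraries of a day, log2 levels of the pair had a Pearson's r of 0.871 at D0 and 0.904 at D6, as a description over clones that share genotype and parental line.

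**Figure D3:**
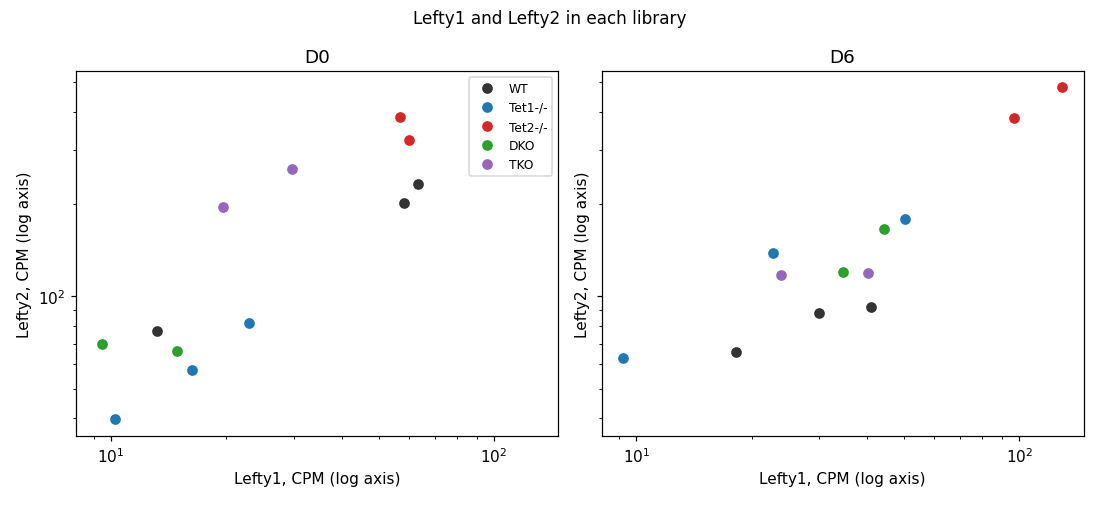
*Lefty1* against *Lefty2* in CPM on log axes, 1 point for each library, D0 and D6 in separate panels. At D0 the 2 TKO clones lie above the other points for their *Lefty1* level (19.6 and 29.6 CPM) with 196 and 259.8 CPM of *Lefty2*, and at D6 both Tet2-/- clones lie at the upper right.

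At D0 the WT clones held 232, 77.2 and 202 CPM of *Lefty2*. Tet2-/- had 324 and 384 CPM, above every other library of the day, and TKO 196 and 259.8 CPM. The lowest were Tet1-/- with 81.6, 39.7 and 57.6 CPM and DKO with 66.5 and 70.0 CPM. All DKO clones lay under every WT clone, while the Tet1-/- range overlapped WT only through clone O4.2. *Lefty1* at D0 was 63.4, 13.2 and 58.2 CPM in WT and 59.9 and 56.6 CPM in Tet2-/-, so here WT and Tet2-/- overlapped. Tet1-/- had 22.8, 10.2 and 16.3 CPM of *Lefty1*, DKO 14.8 and 9.45 CPM and TKO 19.6 and 29.6 CPM.

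The direct comparison with other knockouts at D0 showed the Lefty genes higher in Tet2-/-. Against Tet1-/-, *Lefty2* was 5.93-fold higher (log2 2.57 ± 0.37, adjusted p = 0.00193) and *Lefty1* 3.54-fold higher (1.82 ± 0.49, adjusted p = 0.024). These were 2 of 7 members, in a comparison that called 6.19% of all genes. Against DKO the values were 5.16-fold for *Lefty2* (2.37 ± 0.43, adjusted p = 0.00642) and 4.76-fold for *Lefty1* (2.25 ± 0.58, adjusted p = 0.0216), again 2 of 7 members with 6.36% of all genes called. Against TKO 0 of 7 were called by edgeR (4.19% of all genes) and 0 by DESeq2. In that comparison 3 of 7 members and 4324 of 14456 genes had an unadjusted p under 0.05. The *Lefty2* call against Tet1-/- held in each of the 19 alternatives. The *Lefty1* call against Tet1-/- was lost without Tet1-/- clone 2.3 or 2.4 or either Tet2-/- clone (adjusted p 0.0729 to 0.128). Both calls against DKO were lost without either DKO clone (adjusted p 0.0515 to 0.137), and that of *Lefty1* also without either Tet2-/- clone (0.0705 and 0.108).

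Against WT at D0 neither Lefty gene was called by edgeR in any knockout with all clones and the filter on low counts, but several values lay near the limit. In Tet1-/- edgeR called 0 of 7 members (0.00692% of all genes), with 2 of 7 members and 1828 of 14456 genes at an unadjusted p under 0.05. DESeq2, whose calls over all genes were not counted, called 1, *Lefty2* (-1.53, adjusted p = 0.0255). In DKO 0 of 7 were called by either tool (0.0346% of all genes by edgeR). There 3 of 7 members and 2081 of 14456 genes had an unadjusted p under 0.05. *Lefty2* was lower by log2 -1.53 ± 0.34 in Tet1-/- (adjusted p = 0.113) and -1.33 ± 0.39 in DKO (0.157), and 1.03 ± 0.36 higher in Tet2-/- (0.085). Both the Tet1-/- and the Tet2-/- value of *Lefty2* were called with no filter on low counts (adjusted p 0.0292 and 0.0402) and when only the groups compared entered the fit (0.0372 and 0.0459). Without WT clone O4.2 the Tet2-/- value of *Lefty2* was 0.69 (adjusted p = 0.168), under 2-fold. For *Lefty1* the values were -1.47 ± 0.46 in Tet1-/- (0.218) and -1.90 ± 0.54 in DKO (0.155). Without WT clone O4.2, the low WT library, *Lefty2* in Tet1-/- was at -1.88 (adjusted p = 0.0311), *Lefty1* in Tet1-/- at -1.90 (0.0433) and *Lefty1* in TKO at -1.31 (0.0439), against -0.87 ± 0.51 (0.301) with it, all past the call rule, as was *Lefty1* in Tet2-/- against TKO (1.23, 0.0365, against 1.23 ± 0.55 and 0.157 with it). Leaving out either TKO clone, whose libraries were the most unlike each other at D0, also brought *Lefty2* in Tet1-/- (0.0167 and 0.0172), Tet2-/- (0.0273 and 0.0277) and DKO (0.0375 and 0.0381) and *Lefty1* in DKO (0.0357 and 0.0359) past it.

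**Figure D4:**
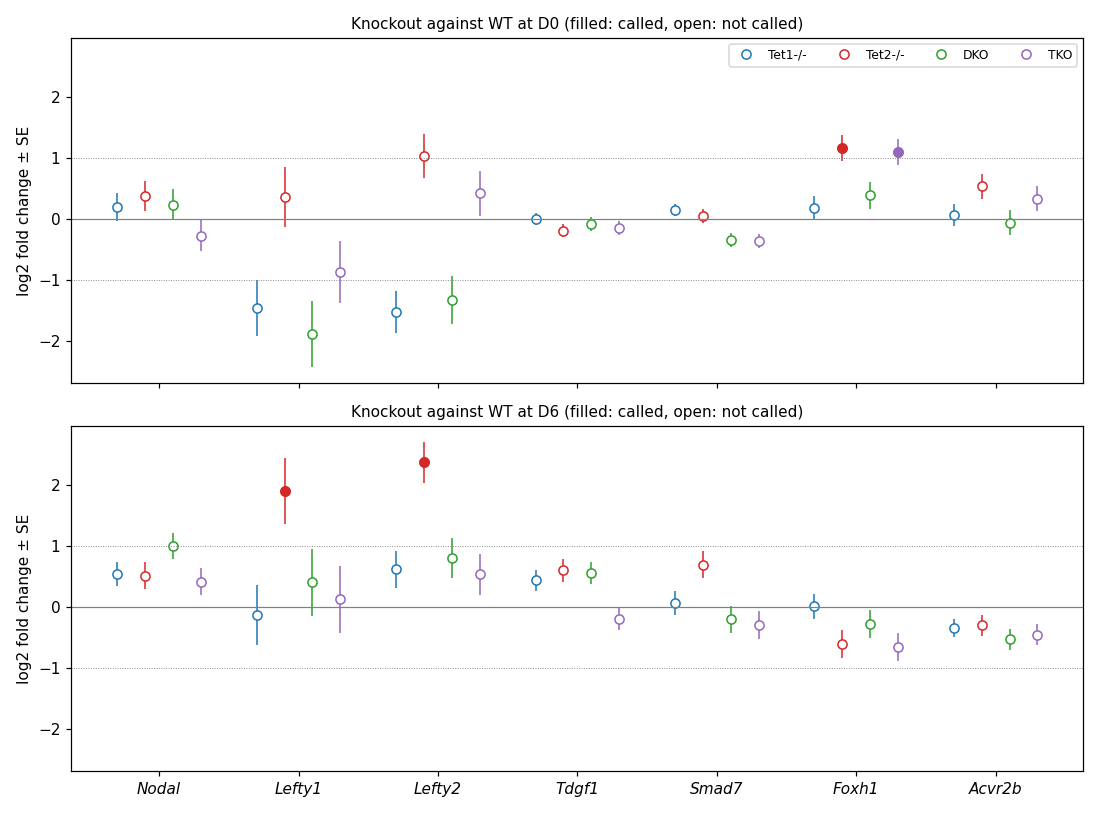
Log2 fold change of each knockout against WT with its standard error, D0 above and D6 below, from the edgeR fits of the 12 libraries of a day. The called points (filled) are *Foxh1* in Tet2-/- and TKO at D0 and *Lefty1* and *Lefty2* in Tet2-/- at D6.

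By D6 the Lefty genes were highest in Tet2-/- against every other genotype. *Lefty2* stood at 382 and 480.3 CPM in Tet2-/- against 92.1, 88.2 and 65.7 CPM in WT. Tet1-/- had 138, 62.8 and 179 CPM, DKO 120.5 and 166 CPM and TKO 119.1 and 117 CPM. The Tet2-/- clones did not overlap any other genotype, and those of DKO and TKO lay above WT. *Lefty1* was 97.0 and 129 CPM in Tet2-/- and 40.9, 30.1 and 18.2 CPM in WT. The other knockouts, Tet1-/- (22.7, 9.25 and 50.2 CPM), DKO (34.5 and 44.3 CPM) and TKO (40.2 and 23.9 CPM), overlapped WT in *Lefty1*.

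Against WT at D6, *Lefty2* was 5.19-fold higher in Tet2-/- (log2 2.38 ± 0.34, adjusted p = 0.0041) and *Lefty1* 3.75-fold higher (1.91 ± 0.54, adjusted p = 0.0257). They were 2 of 7 members called, where 14.3% of all genes were called and 4.81% were called higher. In the other comparisons with WT at D6, edgeR called 0 of 7 members and 0% of all genes. An unadjusted p under 0.05 was found for 3 of 7 members (Tet1-/-), 4 of 7 (DKO) and 2 of 7 (TKO). Over all 15435 genes it was found for 1949, 2251 and 3629, in that order. DESeq2, whose calls over all genes were not counted, called 0, 1 (*Nodal*) and 0 members. *Lefty2* was also called in Tet2-/- against each other knockout, 3.37-fold higher than in Tet1-/- (adjusted p = 0.0146), 2.97-fold higher than in DKO (0.021) and 3.57-fold higher than in TKO (0.0149). *Lefty1* was called against Tet1-/- (4.08-fold, adjusted p = 0.0401) and had log2 values of 1.50 ± 0.61 against DKO (adjusted p = 0.115) and 1.78 ± 0.61 against TKO (0.0725). By edgeR these comparisons called 2, 1 and 1 of the 7 members and 6.36%, 9.50% and 8.64% of all genes. By DESeq2 they called 2, 1 and 3 members, and its share of all genes was not counted.

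With 2 Tet2-/- clones, these calls depended on single libraries. The *Lefty2* call against WT was lost without Tet2-/- replicate 2 (log2 2.204, adjusted p = 0.0663). That of *Lefty1* was lost without either Tet2-/- clone (0.0834 and 0.148) or without WT clone O4.1 or O4.13 (0.0643 and 0.0843). The log2 values stayed between 2.204 and 2.53 for *Lefty2* and between 1.66 and 2.22 for *Lefty1* over 19 alternatives. The calls of *Lefty2* against Tet1-/-, DKO and TKO were each lost without either Tet2-/- clone (adjusted p 0.0663 to 0.175). They were lost too without Tet1-/- clone 2.1, either DKO clone and TKO replicate 2, in that order (0.0519 to 0.161). *Lefty1* against Tet1-/- kept its call in 10 of 19 alternatives, and with the replicate number as a block its adjusted p was 0.0574 and with only the groups compared 0.0833. The *Lefty1* values against DKO and TKO passed the call rule without Tet1-/- clone 2.2 or 2.4 (0.0249 to 0.0429) and when only the groups compared entered the fit (2.83e-05 and 0.0344). That against TKO also passed it with DESeq2 (0.0468) and with no filter on low counts (0.0493).

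Between D0 and D6 *Lefty2* fell in WT and rose in Tet1-/- and DKO, while *Lefty1* rose in DKO and no fall of it was called. The WT value of *Lefty1* was -0.60 ± 0.52 on the log2 scale (adjusted p = 0.315) and -1.03 without the D0 library of O4.2 (0.0651). In WT *Lefty2* fell by 1.06 ± 0.35 on the log2 scale (2.08-fold lower, adjusted p = 0.0131). It fell 2.63-fold in clone O4.1 and 3.08-fold in O4.13, while in O4.2, the low clone at D0, *Lefty2* was 0.26 higher at D6 on the log2 scale and *Lefty1* 1.64 higher. Without WT D0 clone O4.1 or O4.13 or WT D6 clone O4.13 the call was lost (adjusted p 0.0507 to 0.0827), and with clone as a block the value was -0.94 (adjusted p = 0.0154) and with library totals in place of TMM -0.91 (0.0297), both under 2-fold. In Tet1-/- *Lefty2* rose 2.12-fold (adjusted p = 0.012), a call lost without D0 clone 2.3 (0.0659) or D6 clone 2.4 (0.0801), and without D6 clone 2.2 *Lefty1* passed the call rule (1.19, adjusted p = 0.0474). In DKO *Lefty2* rose 2.097-fold (adjusted p = 0.0426) and *Lefty1* 3.24-fold (0.0351). Both DKO calls were lost without any 1 of the 4 DKO libraries (adjusted p 0.0527 to 0.202), and that of *Lefty2* also without Tet1-/- D0 clone 2.4 (0.0506). In Tet2-/- the values were 0.28 ± 0.42 for *Lefty2* (adjusted p = 0.622) and 0.96 ± 0.62 for *Lefty1* (0.236), and in TKO -0.94 ± 0.43 for *Lefty2* (0.0736). The difference in change from WT was 2.14 ± 0.50 for *Lefty2* in Tet1-/- with an adjusted p of 0.286 in edgeR and 0.00696 in DESeq2, and 2.12 ± 0.56 in DKO with 0.439 and 0.0481. Without WT D0 clone O4.2 edgeR called the Tet1-/- difference (2.49, adjusted p = 0.0419), and that of Tet2-/- for *Lefty2* (1.69, 0.0315), which with all libraries was 1.34 ± 0.55 (0.0994).

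The ratio of *Lefty2* to the ligand it inhibits was alike at both days in Tet2-/- and lower at D6 in WT. In CPM, *Lefty2* over *Nodal* was 3.80 and 4.25 in the Tet2-/- clones at D0 and 3.82 and 4.30 at D6. In WT it was 2.69, 2.14 and 2.58 at D0 and 1.74, 1.05 and 0.796 at D6. The TKO clones had ratios of 3.34 and 5.01 at D0 and 0.983 and 1.64 at D6, and in Tet1-/- and DKO the ratio stayed between 0.505 and 1.64 in every library of both days. At D6 no ratio of another genotype reached those of Tet2-/-. These ratios are descriptions without a test.

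*Smad7*, an intracellular inhibitor of the receptors, fell in all genotypes. At D0 WT held 135.5, 154 and 129 CPM, and DKO (112 and 108 CPM) and TKO (102 and 114 CPM) lay under every WT clone, with log2 differences of -0.35 ± 0.11 (adjusted p = 0.195) and -0.37 ± 0.11 (0.0646). By D6 WT had dropped to 52.5, 48.2 and 60.1 CPM and Tet2-/- to 80.7 and 94.9 CPM, from 147 and 144 CPM. The Tet2-/- clones at D6 lay above every clone of the other genotypes. *Smad7* fell 2.60-fold in WT (adjusted p = 1.11e-06), 2.79-fold in Tet1-/- (5.79e-07), 2.37-fold in DKO (6.12e-05) and 2.496-fold in TKO (4.67e-05), and each of these calls held in all 31 alternatives. In Tet2-/- it fell by 0.73 ± 0.20 on the log2 scale (adjusted p = 0.00804), less than 2-fold. The test of that difference from WT gave 0.65 ± 0.26 (adjusted p = 0.0913). Against TKO at D6, *Smad7* in Tet2-/- was 0.99 ± 0.25 higher (adjusted p = 0.0268), and it passed 2-fold with DESeq2, RLE factors, no filter on low counts, the line of the highest mean count or only the groups compared (1.00 to 1.02) and without any 1 of DKO replicate 2, Tet1-/- clone 2.1, WT clone O4.1 or WT clone O4.13 (1.00 to 1.01).

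The order of genotypes differed between the days for each gene. At D0 Tet2-/- had the highest mean of *Nodal*, *Lefty1*, *Lefty2*, *Foxh1* and *Acvr2b*, but only for *Lefty2* and *Foxh1* did its clones clear all other libraries. At D6 it had the highest mean of *Lefty1*, *Lefty2*, *Smad7* and *Tdgf1*, and its clones cleared all others in each of these 4. For *Tdgf1* that margin was small, since Tet2-/- (540.5 ± 0.875 CPM, SD, n = 2) and its neighbour in the order, DKO (519 ± 0.212 CPM), differed by a log2 value of 0.04 ± 0.21 (adjusted p = 0.912). For *Nodal* at D6, DKO (145.9 ± 7.84 CPM) stood above Tet1-/- (106 ± 2.22 CPM) and Tet2-/- (106 ± 8.36 CPM), which overlapped each other. How many of all genes have Tet2-/- clones clear of all other libraries was not counted for either day, so these counts have no background.

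Cell type markers moved with these results. At D6, where *Lefty1*, *Lefty2* and *Smad7* were highest in Tet2-/-, the summed level of the 8 pluripotency markers was also higher there (2470 to 2678 CPM) than in WT (835 to 2181), Tet1-/- (1002 to 2064), DKO (1741 to 1781) and TKO (2294 to 2378). Of the 8, only *Pou5f1* was called higher against WT, and *Dppa5a* (397 ± 21.9 CPM in Tet2-/-) had higher means in DKO (555 ± 48.5) and TKO (697 ± 26.7), both genes being named after their values were seen. Summed levels of 5 endoderm markers were 9.80 to 11.3 CPM in Tet2-/- and 56.5 to 260.04 CPM in WT, and 4 trophectoderm markers stood at 79.5 to 80.3 CPM against 314 to 708 CPM. Called lower in Tet2-/- against WT were 4 of the 5 endoderm, 3 of the 4 trophectoderm and 5 of the 6 mesoderm markers. Neuroectoderm markers went the other way, with 4 of them summing to 195 to 205 CPM in Tet2-/- and 95.8 to 128 CPM in WT, and 3 of the 4 (*Pax6*, *Sox1* and *Tubb3*, named after their values were seen) were called higher. The 4 markers of primed epiblast summed to 1277 to 1466 CPM in Tet2-/- and 839 to 1306 CPM in WT. Of the defining markers, *Hand2* (mesoderm) and *Elf5* (trophectoderm) were at 0 in both Tet2-/- libraries at D6. *Elf5* was also at 0 in every DKO and TKO library at D0. The part of cell composition in the differences between genotypes was not tested. At D0, where *Foxh1* was higher in Tet2-/- and TKO, the 6 mesoderm markers summed to at most 11.8 CPM in every library. The endoderm markers summed to 4.64 and 13.1 CPM in TKO and to 4.16 to 6.43 CPM in the other libraries of that day. Neuroectoderm markers summed to 239 and 299 CPM in Tet2-/-, 179 and 190 CPM in TKO and 142 to 225 CPM in WT. Of all these marker lists 0 genes were called against WT at D0 in Tet2-/- and 1 in TKO, *Nes* of the neuroectoderm list, which was higher by 1.31 ± 0.25 (adjusted p = 0.0103). In the comparisons of D0 in which the Lefty genes were called higher in Tet2-/-, some markers were called lower there and 0 higher. Against Tet1-/- these were *Zfp42* of the pluripotency list (log2 -1.04 ± 0.16, adjusted p = 0.00223) and *Kdr* (-1.90 ± 0.40) and *T*, at under 1 CPM, of the mesoderm list, and against DKO *Zfp42* (-1.19 ± 0.17) and *Kdr* (-2.204 ± 0.42), all named after their values were seen. Their part in the Lefty differences was not tested.

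Another 35 genes of the pathway, listed by role, were counted beside the members. At D6, 34 of them could be tested, and in Tet2-/- against WT 4 were called higher and 12 lower, with a median log2 difference of -0.43 against -0.03 over all genes. The background was 4.81% of all genes called higher and 9.45% called lower. Against WT, Tet1-/-, DKO and TKO had 0 of the 34 called in edgeR, where no gene was called at all. The 4 higher genes, named here after their values were seen, were the ligands *Gdf1*, *Gdf3* and *Inhbb* and the convertase *Pcsk6*. The other convertase of the list, *Furin*, was called lower, with 38.4 ± 3.62 CPM in Tet2-/- and 80.9 ± 16.6 CPM in WT (log2 -1.09 ± 0.18, adjusted p = 0.00508). *Gdf3*, which also signals through Cripto, held 123 ± 8.89 CPM in Tet2-/- (n = 2) and 27.8 ± 16.5 CPM in WT (n = 3). The 5 target genes of Nodal signalling counted here, of which *Foxa2* is also among the endoderm markers above, were all lower in Tet2-/-. *Lhx1*, a homeobox gene of the streak and node, had 0.523 and 1.84 CPM in Tet2-/- and 54.2 to 180.05 CPM in WT (log2 -6.63 ± 1.00, adjusted p = 0.00426). Of 15 further inhibitors 5 were lower, with *Cer1*, a secreted Nodal antagonist, at 0.279 and 1.01 CPM against 20.9 to 66.6 CPM (log2 -5.85 ± 1.00, adjusted p = 0.00551), while *Lefty1* and *Lefty2* were higher. *Cfc1*, the second co-receptor of the Cripto family, was lower by -5.45 ± 1.03 (adjusted p = 0.00664). None of the 5 signal transducers was called.

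**Figure D5:**
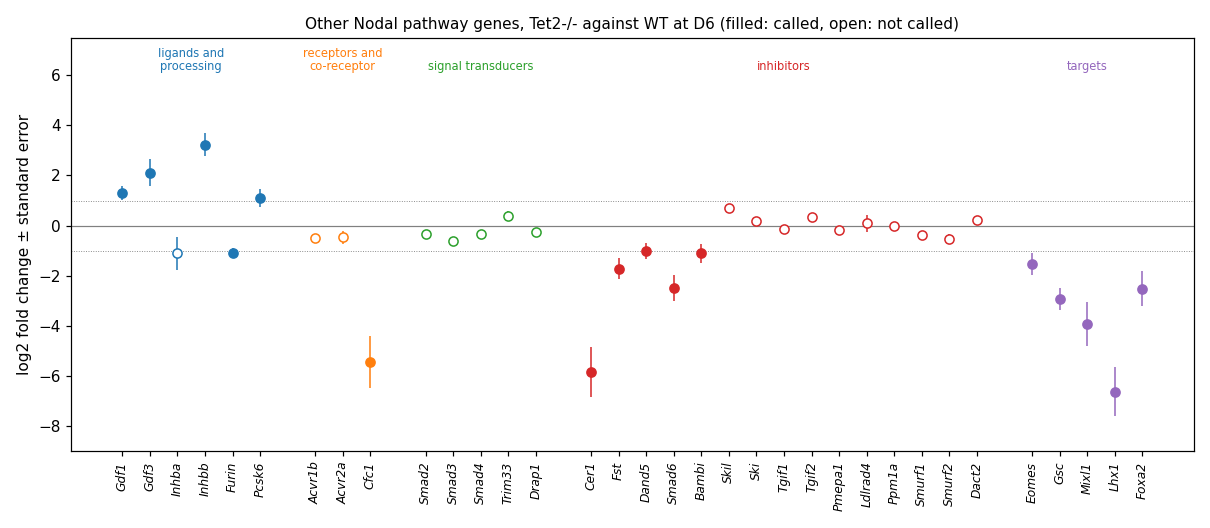
Log2 fold change with standard error of 34 other pathway genes in Tet2-/- against WT at D6, grouped and coloured by role, filled where called. The 5 targets lie under the lower dotted line (2-fold), while *Gdf1*, *Gdf3*, *Inhbb* and *Pcsk6* lie over the upper one.

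Between days the same 5 targets were called higher in WT, Tet1-/-, DKO and TKO, and 4 of the 5 in Tet2-/-, all except *Mixl1*, named here after its values were seen. Of these targets *Lhx1* and *Foxa2* failed the filter on low counts at D0. They entered the joint fit through their D6 counts, so only a rise could be called. In WT 14 of 34 pathway genes were called higher and 3 lower at D6, and in Tet2-/- 8 higher and 3 lower. *Inhba*, *Cfc1* and *Cer1* also failed the filter at D0 and entered the joint fit through D6. Together with *Lhx1* and *Foxa2* they are all among the 14 in WT, and all but *Cfc1* among the 8 in Tet2-/-. The direction of these genes was set by the filter. The shares of all genes called higher were 20.7% in WT and 12.7% in Tet2-/-, and those called lower 13.3% and 6.44%. At D0, 29 of the 35 could be tested, and 0 were called against WT in Tet1-/-, Tet2-/- and DKO. In TKO 1 was called higher (*Eomes*, a T-box target) and 1 lower (*Smad6*, an inhibitory SMAD), both named after their values were seen, where 1.03% and 2.12% of all genes were called higher and lower.

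Apart from *Foxh1*, the genes with the most similar patterns over the 24 libraries after each day's mean was subtracted were *Wdr44* for *Nodal* (r = 0.799), *Abat* for *Tdgf1* (0.863), *Tkt* for *Acvr2b* (0.913), *Trim47* for *Lefty1* (0.891), *Ocel1* for *Lefty2* (0.899) and *Rab27a* for *Smad7* (0.866). Members were left out of this ranking. Among the members themselves the closest pair was *Lefty1* and *Lefty2* (r = 0.881), followed by *Foxh1* and *Acvr2b* (0.658), while *Nodal* had r of 0.269 with *Lefty1* and 0.214 with *Lefty2*. These values are over libraries that share genotype and clone.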

How the data were processed

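RNA-seq counts of 24 ESC libraries were used, and groups and clones were taken from the labels (a DKO clone written without its point at D6 was read as the D0 clone with the same digits). The authors mapped paired-end reads to mm9 with STAR (2.5.1 in the submitters' processing notes) and deposited counts, whole numbers of reads per RefSeq transcript, named by symbol and not normalized. Each table has 31928 lines, and the first line of a symbol was used. The strand setting of the counting is not given in the sources used here, and ERCC spike-in scaling was not repeated.

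Counts were analysed in R 4.3.3 with edgeR 4.0.16 (TMM, factors 0.918 to 1.10; filterByExpr, minimum count 10; quasi-likelihood F-test; 1 coefficient per genotype and day). The 24 libraries were fitted together for D6 against D0 and for differences between days (15639 genes), and the 12 libraries of D0 (14456 genes) or D6 (15435 genes) for differences between genotypes. Benjamini-Hochberg adjustment ran over all genes of a fit, and a call needed an adjusted p-value under 0.05 and more than a 2-fold change. Errors of log2 values are standard errors, and ± beside CPM is the SD. Correlations used log2(CPM + 1). The fits were tested on simulated counts. DESeq2 1.42.0 and the alternatives below were run for comparison, and their calls were counted for the members only, so shares of all genes are those of edgeR. The members and gene lists were chosen with earlier results of these data known, and 1 further gene listed among the targets is not reported here, so counts over targets and pathway genes leave it out. By rule the text names every member, at most the 3 called pathway genes with the largest change per comparison, and the genes most like a member; other pathway or marker genes are named where a small count needed it, after their values were seen. The labels name the clone, which pairs samples across days: deviations from the group means of the same clone correlated at 0.0813 to 0.193 (11 pairs). Both pairs of a genotype with 2 clones give the same value, so the 11 are not independent.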

Additional observations from a re-analysis of the deposited data

Results flagged for a closer look

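The change of *Foxh1* between D0 and D6 differed from WT in Tet2-/- by a log2 value of -1.77 (adjusted p = 0.00521) and in TKO by -1.76 (adjusted p = 0.00902), each by the edgeR test of the difference itself. Both differences use the same WT libraries, and *Foxh1* was already 2.22-fold and 2.14-fold above WT at D0. No genotype had 4 or more libraries at a day, so no search for single outlying libraries was made.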

How the results depend on the processing

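Of 28 called values (1 gene in 1 comparison), 9 kept the call in every alternative run and 0 changed sign. Of the 79 values with an unadjusted p of at least 0.05, 31 changed sign in some alternative, and 0 of the other 82 did. The number of members called moved by more than 1.5 times as follows, the cause not being tested. For D6 against D0 it was 3 in WT and 1 in TKO with library totals only, and 5 in Tet1-/-, 1 in Tet2-/- and 7 in DKO with no fold limit. For knockouts against WT at D0, Tet1-/- had 1 with no filter, with DESeq2 and with only the groups compared, Tet2-/- had 2 with no filter and with only the groups compared, and TKO had 0 with only the groups compared. Against WT at D6, Tet2-/- had 4 with no fold limit and DKO 1 with DESeq2. Tet2-/- against DKO had 4 at D0 and 2 at D6 with no fold limit, and 2 at D6 with only the groups compared. Tet2-/- against TKO at D6 had 2 with RLE factors and with the line of the highest mean count, and 3 with no filter, no fold limit, DESeq2 or only the groups compared. Tet2-/- against Tet1-/- at D6 had 1 with only the groups compared. For the difference between days, Tet2-/- had 3 with no fold limit, Tet1-/- and DKO 1 with DESeq2, and TKO 0 with only the groups compared.

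Leaving out 1 library at a time gave 3 to 5 members in WT, 2 to 4 in Tet1-/-, 0 to 0 in Tet2-/-, 2 to 4 in DKO and 2 to 2 in TKO for D6 against D0. Against WT at D0 it gave 0 to 2 in Tet1-/-, Tet2-/- and DKO and 0 to 1 in TKO, and at D6 0 to 2 in Tet2-/-. Tet2-/- had 1 to 3 against Tet1-/-, 0 to 2 against DKO and 0 to 1 against TKO at D0, and 0 to 2 against each at D6. For the difference between days the ranges were 0 to 1 in Tet1-/-, 1 to 2 in Tet2-/- and in TKO and 0 to 0 in DKO.

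With clone as a replicate block, 1 call of a member was lost, that of *Lefty2* in WT between days (-0.94, adjusted p = 0.0154). Within a day the labels tie no batch to a replicate number, so the numbers were not taken as pairs. Correlations of samples with the same number ran from -0.0718 to 0.312 at D0 (median 0.134) and from -0.377 to 0.312 at D6 (median -0.045). Of 12 libraries a day, 9 at D0 and 2 at D6 correlated best with their own number, at most a weak hint of pairing at D0. In a group of 2 clones the deviations mirror each other, so these libraries are not independent counts. A block on the replicate number left 1 member called for Tet2-/- against Tet1-/- at D6. Neither block changed another call. With 2 or 3 clones a group, the number of clones limits the precision.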
